A study of Mus musculus with 8 samples.

Results

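The genes described here encode the T cell receptor complex and the signalling machinery that sits directly below it: 43 genes of 39179 listed in the count files, named as a list and matched by symbol to 1 Ensembl ID each. All 43 passed the filter on low counts. They were followed through 4 groups of antigen-specific mouse CD4 T cells, 2 libraries each.

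The T cell receptor recognises peptide through its variable chains but signals through the invariant CD3 chains, whose cytoplasmic tyrosine motifs are phosphorylated by the kinases Lck and Fyn. Zap70 then docks on these motifs and phosphorylates the scaffolds Lat and SLP-76 (Lcp2), which gather phospholipase C gamma 1, Vav1 and the Ras exchange factors. Diacylglycerol made by the phospholipase feeds Ras through Rasgrp1 and NF-kB through Prkcq, Bcl10 and Malt1, and a set of phosphatases, ubiquitin ligases and inhibitory adaptors restrains each step. In follicular helper (Tfh) cells, receptor signalling is part of how the cells arise and how they are selected to help B cells.

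All cells were Smarta T cells, which carry a transgenic receptor for a viral peptide (GP61-80), and CreERT2, a tamoxifen-activated recombinase; all groups, the empty-vector ones too, were transduced and given tamoxifen. The groups were Tfh cells with an inducible Bach2 vector, Tfh cells with an empty vector, non-Tfh cells with the Bach2 vector and non-Tfh cells with the empty vector, all from C57BL/6 hosts. Hosts were immunised under the skin with the peptide and nitrophenol on mouse serum albumin, they got tamoxifen on day 5, and T cells were sorted from pooled groin nodes 18 hours later. Sorting used Thy-1.1, high CD44, and CXCR5 with PD-1, which Tfh cells carry and non-Tfh cells lack. None of the 43 genes encodes a gate. Age is not given in the labels, nor whether the 2 replicates of a group are separate animals or cultures, so p-values measure only the spread between these libraries.

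Libraries held 7862879 to 9889859 counts, and the 43 genes had between 97 counts (Rel, a NF-kB subunit) and 42507 counts (Ptprc) in a library. The vector gene Bach2 was at 121 and 135 CPM (the depth-scaled count, with TMM factors) in Bach2 Tfh cells, 11.2 and 14.1 CPM in empty-vector Tfh cells, 130.5 and 157.5 CPM in Bach2 non-Tfh cells and 24.9 and 28.9 CPM in empty-vector non-Tfh cells, with no overlap between vectors. Trbv13-1 held 99.8% to 99.9% of the reads of all 22 beta-chain variable segments listed. Trav14d-3-dv8 held 82.9% to 89.8% of those of 103 alpha-chain segments, whose close copies may share reads. The Tfh markers Cxcr5 (577 to 815 CPM in Tfh against 17.4 to 28.3 CPM in non-Tfh libraries) and Bcl6 (102 to 159 CPM in Tfh against at most 24.2 CPM in non-Tfh libraries) separated the sorted populations. Cxcr5 encodes a gate, so its separation follows from the sort. Of 7 Tfh markers, 6 were higher in Tfh cells with either vector at an adjusted p below 0.05. With the empty vector 1 was lower, and the lowest log2 estimates were -0.24 with the Bach2 vector and -0.48 with the empty vector. Of markers of other cells, the 6 B cell genes summed to 841 to 1019 CPM in Tfh and 404 to 543 CPM in non-Tfh libraries, nearly all of it Ighm and Cd22; Ms4a1, Cd79a and Cd79b reached at most 4.69 CPM. The 8 myeloid genes summed to 4.92 to 8.99 CPM in Tfh and 10.4 to 16.6 CPM in non-Tfh libraries. The 3 natural killer genes summed to 61.8 to 100.4 CPM in Tfh and 11.7 to 24.3 CPM in non-Tfh libraries (mainly Klrb1c). The 4 stromal and endothelial genes summed to 229 to 281 CPM in Tfh and 176 to 205 CPM in non-Tfh libraries (nearly all Pecam1), while Ncr1, Col3a1, Pdpn and Hbb-bs were at 0 in all 8. Cd8b1 was at 13.1 to 20.2 CPM and Cd8a at most 0.764 CPM, and the mitochondrial share was 0.953% to 1.26% in Tfh and 0.860% to 0.987% in non-Tfh libraries. The part of these markers and of the mitochondrial share in the results below was not tested.

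Tfh cells carried more transcript of the CD3 chains and of 3 of 4 proximal kinases than non-Tfh cells, and less of several inhibitory or scaffold adaptors. The 43 genes together made up 26146 and 25119 CPM in Bach2 Tfh, 25897 and 24846 in empty-vector Tfh, 20618 and 20690.4 in Bach2 non-Tfh and 21223 and 20158 in empty-vector non-Tfh cells. All 4 Tfh libraries thus lay above all 4 non-Tfh libraries, and this stayed so without Ptprc, Lck and Fyn, the 3 genes with the largest differences in CPM (17100.1 to 18599 CPM in Tfh against 14863 to 15581 in non-Tfh). In bulk RNA, fewer cells of a type and less RNA per cell cannot be told apart. With the Bach2 vector 16 of 43 genes were higher in Tfh than in non-Tfh cells and 7 were lower, against 11.6% and 12.7% (24.4% in all) of the 11475 genes tested. With the empty vector 15 were higher and 7 lower, against 10.6% and 11.3% (21.9% in all) of the genes tested. The medians over the 43 genes were 0.17 and 0.12 on the log2 scale, against 0.00 and 0.01 over all genes. The 43 genes are abundant, calls come more easily at high counts, and the list was not compared with genes of like level. Without replicate 2 of the empty-vector non-Tfh cells, 8 were higher and 6 lower with the empty vector. Adjusted p-values come from the quasi-likelihood test of edgeR and were adjusted over all tested genes by Benjamini and Hochberg's method. Genes are said to rise, fall, be higher or be lower where that value was below 0.05.

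**Figure D1:**
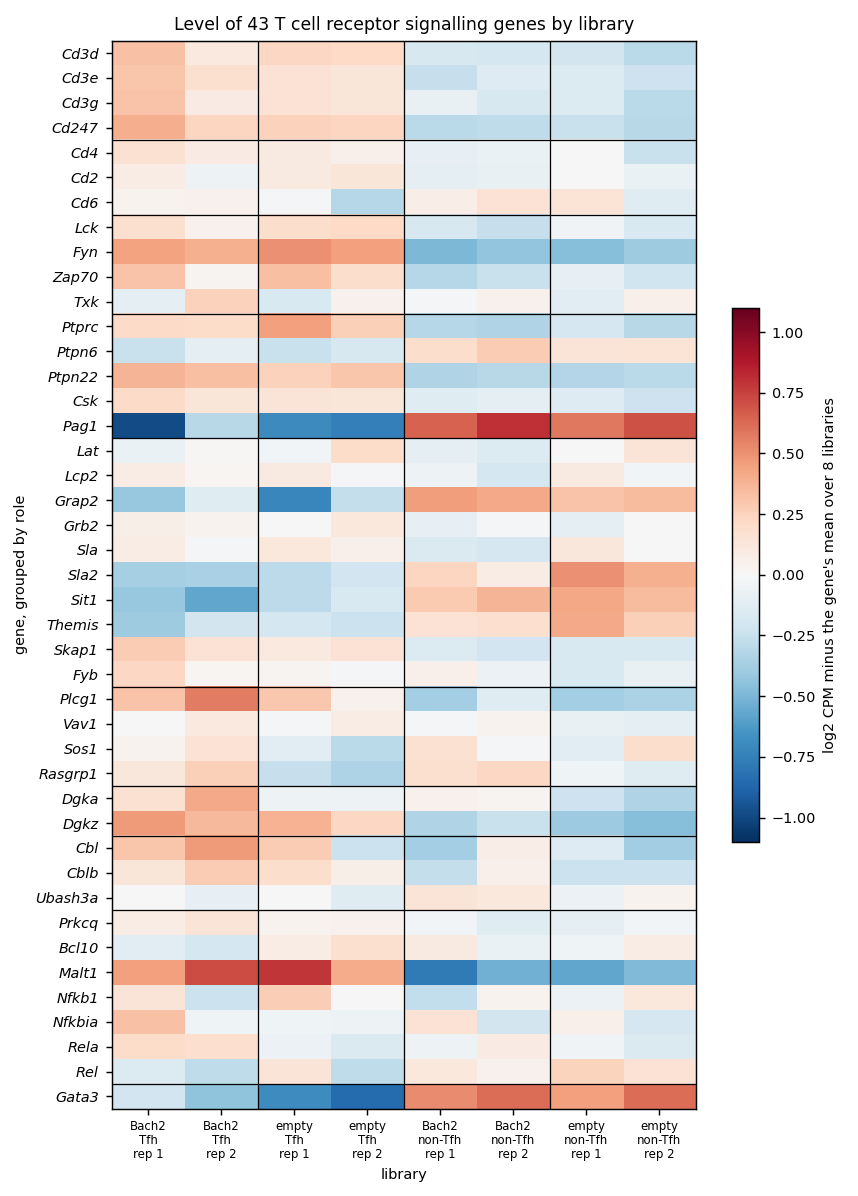
Level of the 43 genes (rows, grouped by role with black lines) in 8 libraries (columns), as log2 CPM minus the gene's own mean over the libraries, red above and blue below it. The 4 CD3 chains at the top are red in every Tfh library and blue in every non-Tfh library, and Pag1, Grap2, Sla2, Sit1, Themis and Gata3 show the opposite.

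The 4 CD3 chains, the signalling part of the receptor, were all higher in Tfh than in non-Tfh cells, with either vector. Cd3d had 905 and 780.2 CPM in Bach2 Tfh, 849.7 and 842 in empty-vector Tfh, 644 and 633 in Bach2 non-Tfh and 631 and 591 in empty-vector non-Tfh cells. Cd3e had 1800.0 and 1644 CPM in Bach2 Tfh, 1630.0 and 1592 in empty-vector Tfh, 1224 and 1317 in Bach2 non-Tfh and 1309 and 1244 in empty-vector non-Tfh cells. In both genes every Tfh library lay above every non-Tfh library. Cd3g had 1438 and 1233 CPM in Bach2 Tfh, 1288 and 1267 in empty-vector Tfh, 1092 and 1025 in Bach2 non-Tfh and 1042 and 944 in empty-vector non-Tfh cells. Cd247 had 645 and 579 CPM in Bach2 Tfh, 584 and 577 in empty-vector Tfh, 399 and 404 in Bach2 non-Tfh and 412 and 397 in empty-vector non-Tfh cells. Cd247 encodes the zeta chain, which carries more of the phosphorylated motifs than any other chain, and its difference was the largest of the 4: 0.61 (SE 0.0793, adjusted p = 7.42e-05) with the Bach2 vector and 0.52 (SE 0.0793, adjusted p = 0.000289) with the empty vector. Cd3d differed by 0.40 (SE 0.0846, adjusted p = 0.00315) with the Bach2 vector and 0.47 (SE 0.0847, adjusted p = 0.00109) with the empty vector, Cd3e by 0.44 (SE 0.0796, adjusted p = 0.00106) and 0.34 (SE 0.0795, adjusted p = 0.00746), and Cd3g by 0.34 (SE 0.089, adjusted p = 0.0129) and 0.36 (SE 0.089, adjusted p = 0.00912), in the same order of vectors. Without replicate 2 of the empty-vector non-Tfh cells, the empty-vector calls of Cd3e (adjusted p = 0.0846) and Cd3g (adjusted p = 0.117) were lost. With the Bach2 vector, Cd3g was lost without replicate 1 of the Bach2 Tfh cells (log2 fold change 0.22, adjusted p = 0.137) or without replicate 2 of the Bach2 non-Tfh cells (adjusted p = 0.113). Within a library the chains kept close proportions: Cd3d had 0.475 to 0.529 and Cd3g 0.750 to 0.892 counts for each count of Cd3e. Cd247 had 0.352 to 0.362 counts per Cd3e count in Tfh and 0.307 to 0.326 in non-Tfh libraries, ranges that did not overlap. On GRCm38, Cd3g (chromosome 9, 44969572 to 44980431, minus strand) and Cd3d (44981786 to 44987339, plus strand) lie head to head with 1354 bases between them, and Cd3e (44998740 to 45009627, minus strand) follows 11400 bases on. Cd247 (chromosome 1, 165788681 to 165877277) shares 3007 exonic bases with Pou2f1 on the other strand, and since the kit does not mark strand, reads there cannot be told apart.

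The co-receptor and adhesion receptors at the synapse did not pass the threshold, 0 of 3 by edgeR with either vector, with Cd4 at an unadjusted p below 0.05 in both and DESeq2 calling none. Cd4, the co-receptor that brings Lck to the complex, had 1438 and 1364 CPM in Bach2 Tfh, 1372 and 1329 in empty-vector Tfh, 1203 and 1217 in Bach2 non-Tfh and 1279 and 1077 in empty-vector non-Tfh cells. Its log2 differences were 0.21 (SE 0.087, adjusted p = 0.0963) with the Bach2 vector and 0.20 (SE 0.0871, adjusted p = 0.128) with the empty vector, with 95% intervals of 0.02 to 0.40 and 0.01 to 0.38. Without replicate 1 of the empty-vector non-Tfh cells the empty-vector difference passed (adjusted p = 0.0404). The adhesion receptor gene Cd2 differed by 0.11 and 0.15 (adjusted p = 0.357 and 0.187), and Cd6, a scavenger-type receptor that binds CD166, by -0.07 and -0.18 (adjusted p = 0.697 and 0.278), Bach2 vector first.

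Of the 4 kinases, 3 were higher in Tfh cells with either vector, and Fyn stood out by size. Fyn had 1454 and 1399 CPM in Bach2 Tfh, 1519 and 1461 in empty-vector Tfh, 758 and 794 in Bach2 non-Tfh and 774 and 814 in empty-vector non-Tfh cells. Every Tfh library lay far above every non-Tfh library. The log2 differences of Fyn, a Src-family kinase that phosphorylates receptor motifs, were 0.88 (SE 0.0758, adjusted p = 2.05e-06) with the Bach2 vector and 0.91 (SE 0.0758, adjusted p = 1.37e-06) with the empty vector. Lck, the main Src-family kinase of the receptor, had 2261 to 2552 CPM in Tfh and 1837 to 2139 CPM in non-Tfh libraries, with log2 differences of 0.33 (SE 0.0812, adjusted p = 0.00868) and 0.30 (SE 0.0811, adjusted p = 0.0149). Zap70, the kinase that binds the phosphorylated chains, had 461 to 565 CPM in Tfh and 362 to 423 CPM in non-Tfh libraries, with 0.46 (SE 0.0972, adjusted p = 0.00314) and 0.41 (SE 0.097, adjusted p = 0.00694). The Tec-family kinase Txk was at 53.0 to 70.9 CPM in Tfh and 54.8 to 61.8 CPM in non-Tfh libraries, which overlapped (0.07, adjusted p = 0.773, and -0.03, adjusted p = 0.907). The empty-vector call of Lck was lost without replicate 1 (adjusted p = 0.0507) or 2 (adjusted p = 0.0594) of the empty-vector Tfh cells or replicate 2 of the empty-vector non-Tfh cells (adjusted p = 0.162). Its Bach2-vector call was lost without replicate 1 of the Bach2 Tfh (adjusted p = 0.0745) or replicate 2 of the Bach2 non-Tfh cells (adjusted p = 0.0966). Zap70 lost its empty-vector call without replicate 1 of the empty-vector Tfh (adjusted p = 0.0682) or replicate 2 of the empty-vector non-Tfh cells (adjusted p = 0.0885).

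All 5 genes that set the activity of the Src kinases differed, 3 upward and 2 downward in Tfh cells. Ptprc had 3612 and 3589.6 CPM in Bach2 Tfh, 4264 and 3732 in empty-vector Tfh, 2506 and 2478 in Bach2 non-Tfh and 2739 and 2526 in empty-vector non-Tfh cells. Ptprc encodes CD45, the phosphatase that removes the inhibitory phosphate of Lck. It is the most counted of the 43 genes, its isoforms were not separated, and its log2 differences were 0.53 (SE 0.0836, adjusted p = 0.000345) with the Bach2 vector and 0.60 (SE 0.0836, adjusted p = 0.000129) with the empty vector. Ptpn22 had 769 and 747 CPM in Bach2 Tfh, 708 and 735 in empty-vector Tfh, 473 and 482 in Bach2 non-Tfh and 476 and 484 in empty-vector non-Tfh cells. For this phosphatase, which dephosphorylates Lck and Zap70, replicates lay close together and cell types apart: 0.67 (SE 0.0738, adjusted p = 1.77e-05) with the Bach2 vector and 0.59 (SE 0.0738, adjusted p = 5.38e-05) with the empty vector. Csk, the kinase that adds the inhibitory phosphate to Lck, was higher by 0.30 (SE 0.0777, adjusted p = 0.0123) and 0.32 (SE 0.0779, adjusted p = 0.00811). Pag1 had 20.7 and 33.2 CPM in Bach2 Tfh, 25.2 and 24.3 in empty-vector Tfh, 64.4 and 71.6 in Bach2 non-Tfh and 61.3 and 66.7 in empty-vector non-Tfh cells. Pag1, the membrane adaptor that recruits Csk, had the largest absolute log2 difference among the 43 genes with either vector and in the direction opposite to Csk: -1.34 (SE 0.176, adjusted p = 0.000102) with the Bach2 vector and -1.37 (SE 0.177, adjusted p = 9.30e-05) with the empty vector. Ptpn6, which encodes the inhibitory phosphatase SHP-1, was also lower in Tfh cells (514 to 568 CPM against 670.4 to 741 CPM in non-Tfh libraries), by -0.41 (SE 0.0801, adjusted p = 0.00177) and -0.36 (SE 0.0801, adjusted p = 0.00547). With the empty vector, Csk and Ptpn6 were lost without replicate 1 of the empty-vector Tfh cells (adjusted p = 0.0507 and 0.0535) or replicate 2 of the empty-vector non-Tfh cells (adjusted p = 0.0987 and 0.0509). Csk with the Bach2 vector was lost without replicate 1 of the Bach2 Tfh (adjusted p = 0.0783) or replicate 1 (adjusted p = 0.0755) or 2 (adjusted p = 0.0586) of the Bach2 non-Tfh cells.

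Among 10 adaptors, 4 were lower and 1 higher in Tfh cells with either vector. Those lower were Grap2, Sla2, Sit1 and Themis. Sit1 had 61.1 and 54.8 CPM in Bach2 Tfh, 66.6 and 72.6 in empty-vector Tfh, 99.3 and 106 in Bach2 non-Tfh and 109 and 104 in empty-vector non-Tfh cells. Sla2 had 71.1 and 71.6 CPM in Bach2 Tfh, 74.9 and 79.3 in empty-vector Tfh, 108 and 96.9 in Bach2 non-Tfh and 129.7 and 120.3 in empty-vector non-Tfh cells. Sit1 is a transmembrane adaptor and Sla2 a SLAP-family adaptor, both known to dampen receptor signalling. Sit1 differed by -0.82 (SE 0.103, adjusted p = 5.10e-05) with the Bach2 vector and -0.62 (SE 0.102, adjusted p = 0.000563) with the empty vector, and Sla2 by -0.52 (SE 0.0982, adjusted p = 0.00143) and -0.70 (SE 0.0975, adjusted p = 0.000138). Themis had 237 and 271 CPM in Bach2 Tfh, 271 and 264 in empty-vector Tfh, 347 and 352 in Bach2 non-Tfh and 415 and 373 in empty-vector non-Tfh cells. Grap2 had 25.0 and 30.3 CPM in Bach2 Tfh, 20.3 and 27.7 in empty-vector Tfh, 45.7 and 44.6 in Bach2 non-Tfh and 41.5 and 42.4 in empty-vector non-Tfh cells. Themis, an adaptor needed for thymocyte selection, and Grap2 (Gads), which bridges Lat to SLP-76, had every Tfh library below every non-Tfh library. Themis differed by -0.46 (SE 0.0881, adjusted p = 0.00150) with the Bach2 vector and -0.56 (SE 0.0879, adjusted p = 0.000387) with the empty vector, and Grap2 by -0.71 (SE 0.157, adjusted p = 0.00419) and -0.81 (SE 0.159, adjusted p = 0.00211). Sla2 shares 731 exonic bases with Rab5if on the other strand, and its reads cannot be told from those of that gene there.

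The central scaffolds Lat and Lcp2 did not pass the threshold. Over both vectors, Lat had 351 to 426 CPM in Tfh and 332 to 408 CPM in non-Tfh libraries. Lcp2 had 578 to 630.2 CPM in Tfh and 513 to 628 CPM in non-Tfh libraries. For both genes these ranges overlapped, as did the cell types with the empty vector. With the Bach2 vector the Tfh libraries lay above the non-Tfh ones, as for 29.3% of all genes. Lat had 351 and 372 CPM there against 344 and 332, and Lcp2 622 and 595 against 564 and 513. The 95% intervals of Lat and Lcp2 were -0.10 to 0.29 and -0.00 to 0.36 on the log2 scale with the Bach2 vector. With the empty vector they were -0.18 to 0.21 and -0.18 to 0.19. Grb2, Sla and Fyb were likewise not past the threshold, with estimates from 0.10 to 0.20 with the Bach2 vector and from 0.02 to 0.13 with the empty vector. Skap1, the partner of Fyb in integrin activation, was higher in Tfh cells by 0.40 (SE 0.0767, adjusted p = 0.00155) and 0.30 (SE 0.0767, adjusted p = 0.0110). Its empty-vector call was lost without replicate 2 of the empty-vector Tfh (adjusted p = 0.0611) or replicate 1 (adjusted p = 0.0690) or 2 (adjusted p = 0.0764) of the empty-vector non-Tfh cells.

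Of the enzymes that make and remove diacylglycerol, Plcg1 and Dgkz were higher in Tfh cells with either vector and Dgka with the Bach2 vector, while the exchange factors did not pass the threshold. Plcg1 had 372 and 439.9 CPM in Bach2 Tfh, 367 and 308 in empty-vector Tfh, 231 and 273 in Bach2 non-Tfh and 230.2 and 234 in empty-vector non-Tfh cells. Dgkz had 1014 and 942 CPM in Bach2 Tfh, 958 and 863 in empty-vector Tfh, 584 and 621 in Bach2 non-Tfh and 558 and 531 in empty-vector non-Tfh cells. Plcg1, which splits a membrane lipid into diacylglycerol and inositol trisphosphate, differed by 0.69 (SE 0.111, adjusted p = 0.000510) with the Bach2 vector and 0.54 (SE 0.111, adjusted p = 0.00334) with the empty vector. Dgkz, a kinase that consumes diacylglycerol, differed by 0.70 (SE 0.0829, adjusted p = 3.31e-05) with the Bach2 vector and 0.74 (SE 0.0831, adjusted p = 1.98e-05) with the empty vector. Dgka, the other diacylglycerol kinase of T cells, differed by 0.26 (SE 0.0874, adjusted p = 0.0442) and 0.22 (SE 0.0876, adjusted p = 0.0865), past the threshold with the Bach2 vector. That call was lost when any of replicate 2 of the Bach2 Tfh cells (log2 fold change 0.13, adjusted p = 0.327), replicate 1 or 2 of the Bach2 non-Tfh cells (adjusted p = 0.138 and 0.165) and replicate 1 or 2 of the empty-vector non-Tfh cells (adjusted p = 0.0592 and 0.0610) was left out. The empty-vector difference passed without replicate 1 (adjusted p = 0.0468) or 2 (adjusted p = 0.0407) of the Bach2 Tfh cells. The exchange factor genes Vav1 (0.05 and 0.13), Sos1 (0.03 and -0.25) and Rasgrp1 (-0.01 and -0.21) were not past the threshold, Bach2 vector first.

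Of the NF-kB arm, Malt1 alone of 7 genes passed the threshold. Malt1 had 253 and 305 CPM in Bach2 Tfh, 321 and 247 in empty-vector Tfh, 108 and 129 in Bach2 non-Tfh and 125 and 133 in empty-vector non-Tfh cells. Malt1, the paracaspase that works with Bcl10, had the largest rise toward Tfh cells among the 43 genes with either vector, 1.23 (SE 0.137, adjusted p = 7.15e-05) with the Bach2 vector and 1.14 (SE 0.137, adjusted p = 0.000130) with the empty vector. Its partner Bcl10 had -0.17 (adjusted p = 0.229) and 0.11 (adjusted p = 0.465), and the upstream kinase gene Prkcq 0.19 (adjusted p = 0.0840) and 0.11 (adjusted p = 0.354). The subunit genes Nfkb1, Rela and Rel and the inhibitor gene Nfkbia ranged from -0.29 to 0.17 with the Bach2 vector and from -0.25 to 0.12 with the empty vector. Of the ubiquitin ligases, Cblb was higher in Tfh cells by 0.31 (SE 0.105, adjusted p = 0.0474) and 0.37 (SE 0.105, adjusted p = 0.0211), a call that many of the alternatives ended. With the Bach2 vector DESeq2 passed Cbl (adjusted p = 0.0354) and not Cblb (adjusted p = 0.0568). With the Bach2 vector it was lost without replicate 1 of the Bach2 non-Tfh cells (log2 fold change 0.15, adjusted p = 0.397), replicate 1 (adjusted p = 0.0533) or 2 (adjusted p = 0.217) of the Bach2 Tfh cells or replicate 1 (adjusted p = 0.0722) or 2 (adjusted p = 0.0711) of the empty-vector non-Tfh cells. It was 0.48 (adjusted p = 0.00843) without replicate 2 of the Bach2 non-Tfh cells. With the empty vector it was lost without replicate 1 of the empty-vector Tfh (adjusted p = 0.147) or replicate 1 (adjusted p = 0.103) or 2 (adjusted p = 0.110) of the empty-vector non-Tfh cells. Cbl had 0.52 (adjusted p = 0.0598) and 0.31 (adjusted p = 0.283). It passed with the Bach2 vector without replicate 2 of the Bach2 non-Tfh cells (log2 fold change 0.76, adjusted p = 0.0192) or without replicate 1 (adjusted p = 0.0210) or 2 (adjusted p = 0.0210) of the empty-vector Tfh cells. Ubash3a, a phosphatase of the Sts family, had -0.17 and -0.05 (adjusted p = 0.158 and 0.703).

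Gata3, the only transcription factor outside the NF-kB family on the list and the factor that defines Th2 cells, was lower in Tfh cells. Gata3 had 118 and 101 CPM in Bach2 Tfh, 84.6 and 76.2 in empty-vector Tfh, 196 and 209.5 in Bach2 non-Tfh and 188 and 209.6 in empty-vector non-Tfh cells. The Tfh and non-Tfh libraries were far apart, -0.89 (SE 0.101, adjusted p = 2.21e-05) with the Bach2 vector and -1.30 (SE 0.103, adjusted p = 8.58e-07) with the empty vector.

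**Figure D2:**
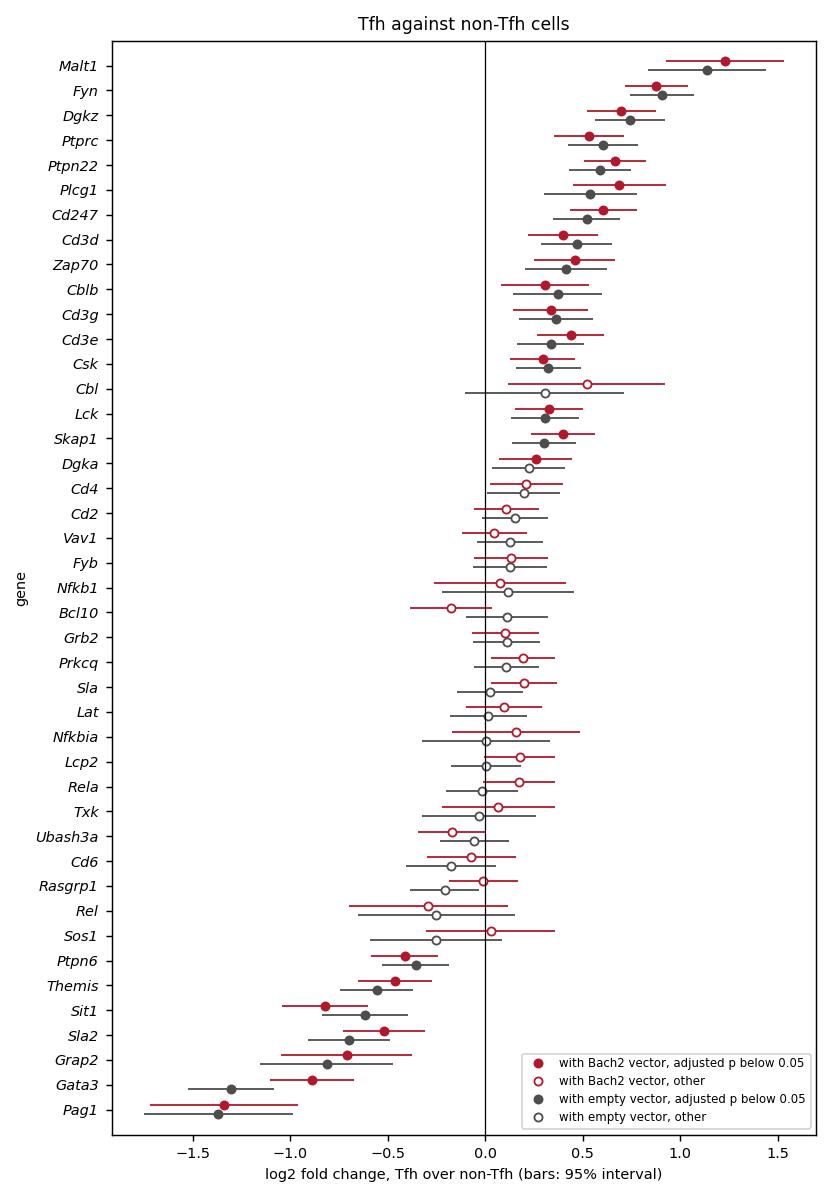
Log2 fold change of Tfh over non-Tfh cells (horizontal axis) for each of the 43 genes (vertical axis, ordered by the empty-vector value), with the Bach2 vector in red and the empty vector in grey; bars are 95% intervals of each gene and filled points have adjusted p below 0.05. Malt1 and Fyn lie farthest to the right and Gata3 and Pag1 farthest to the left, and red and grey points lie close together for most genes.

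The Bach2 and empty-vector comparisons of cell types share no library. Both come from the same fit with a shared estimate of the spread, so their calls are not independent. All 22 genes past the threshold with the empty vector were also past it, with the same sign, with the Bach2 vector (100% of 22 and 95.7% of 23), and the exception was Dgka. In the list of 81 further pathway genes described below, 81.1% of the empty-vector and 83.3% of the Bach2-vector calls were shared. The overlap over all genes was not counted. Of the 22 empty-vector calls, 14 held in all 13 alternatives tried (Cd3d, Cd247, Fyn, Ptprc, Ptpn22, Pag1, Grap2, Sla2, Sit1, Themis, Plcg1, Dgkz, Malt1 and Gata3), and so did 18 of the 23 Bach2-vector calls. With the Bach2 vector the 2 groups did not overlap for 25 genes higher and 11 lower in Tfh cells, against 29.3% and 30.5% of all genes. With the empty vector the numbers were 23 and 10, against 31.3% and 30.9%.

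**Figure D3:**
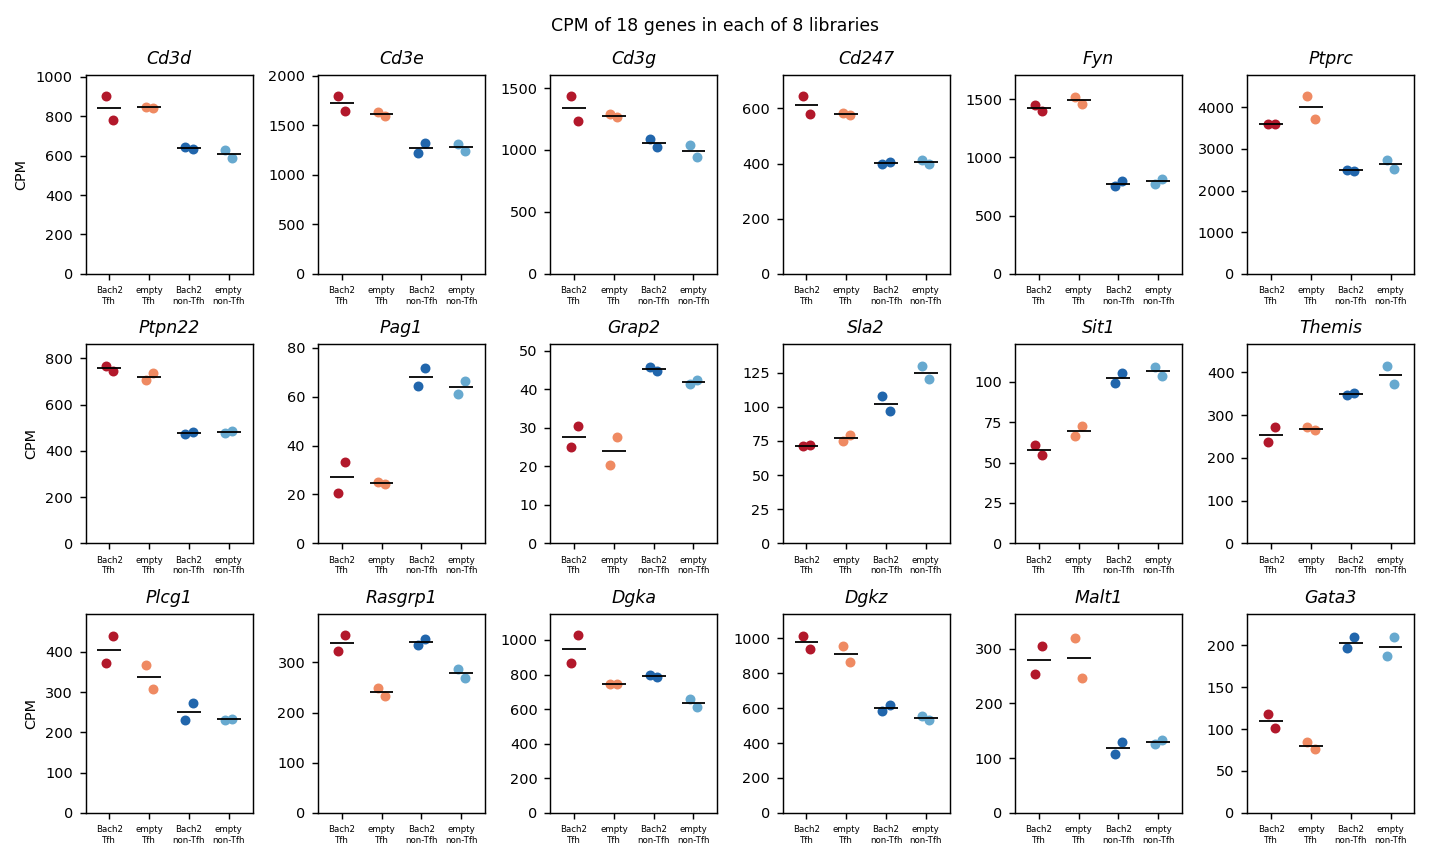
CPM (vertical axes, from 0) of 18 genes in each library: points are the 2 libraries of a group, lines their mean, with Bach2 and empty-vector Tfh cells in red and orange and Bach2 and empty-vector non-Tfh cells in dark and light blue. Red and orange points lie above the blue ones for the CD3 chains, Fyn, Ptprc, Ptpn22, Plcg1, Dgkz and Malt1 and below them for Pag1, Grap2, Sla2, Sit1, Themis and Gata3, while Rasgrp1 and Dgka lie higher with Bach2 in both cell types.

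Per length, 3 of the 4 CD3 chains were among the 5 highest of the 43 genes in empty-vector Tfh cells. As mean CPM per kilobase of annotated exon in empty-vector Tfh cells, Lck was highest (864), followed by Cd3d (466), Cd2 (441), Cd3e (395), Cd3g (391), Fyn (341) and Cd4 (335). The fourth chain gene, Cd247, was 16th (109), and in empty-vector non-Tfh cells it was 20th (75.9). In empty-vector non-Tfh cells the level of Fyn per kilobase was 182, the 9th in order, and Ptpn6 (241) was the 7th. At the low end in empty-vector Tfh cells were Rel (1.92), Sos1 (2.21), Pag1 (2.58), Grap2 (3.84) and Cbl (4.27). Length here is the union of all annotated exons, 18040 bases for Malt1 and 1815 for Cd3d, so the order depends on the annotation. Between neighbours such as Cd3e and Cd3g, or Fyn and Cd4, it is given as a description and was not tested.

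In 81 further genes of the receptor pathway, chosen as a list, 25 were higher and 11 lower in Tfh cells with the Bach2 vector. These were 30.9% and 13.6% of the list, against 11.6% and 12.7% of all genes tested. With the empty vector 24 were higher and 13 lower (29.6% and 16.05%), against 10.6% and 11.3%. Of the 36 and 37 calls, 30 were shared and of the same sign. The list was not compared with genes of like level. The 5 genes with the largest differences past the threshold were the same with either vector. Nfatc1, a calcium-driven transcription factor, had 1642 ± 66.5 CPM in Bach2 Tfh, 1538 ± 99.6 in empty-vector Tfh, 630.5 ± 49.1 in Bach2 non-Tfh and 659 ± 37.7 in empty-vector non-Tfh cells (SD, n = 2), and was higher in Tfh cells by 1.38 (SE 0.0873, adjusted p = 1.24e-07) with the Bach2 vector and 1.22 (SE 0.087, adjusted p = 3.97e-07) with the empty vector. Ppp3ca, a catalytic subunit of calcineurin, the phosphatase that activates NFAT, was lower in Tfh cells, with 16.8 ± 4.91, 13.9 ± 1.09, 87.5 ± 14.9 and 74.9 ± 9.87 CPM in the same order of groups and log2 differences of -2.38 (SE 0.192, adjusted p = 2.84e-06) and -2.43 (SE 0.197, adjusted p = 2.78e-06). The ubiquitin ligase gene Rnf128 (GRAIL) was higher in Tfh cells, with 3.46 (adjusted p = 1.09e-05) and 2.71 (adjusted p = 6.97e-05), and had means of 20.6 and 16.3 CPM in Tfh against 1.87 and 2.48 CPM in non-Tfh cells, Bach2 vector first. Rasgrp2, an exchange factor for Rap1, was lower with -1.54 (adjusted p = 0.00270) and -1.78 (adjusted p = 0.00165), and the inhibitory adaptor gene Dok2 with -1.18 (adjusted p = 7.97e-05) and -1.22 (adjusted p = 6.37e-05). Of the receptor's constant-region genes, Trac (alpha chain) was higher in Tfh cells by 0.46 (SE 0.0901, adjusted p = 0.00177) and 0.45 (SE 0.0901, adjusted p = 0.00229), while the beta-chain genes did not pass the threshold. Trbc2 had 7884 and 7014 CPM in Bach2 Tfh, 6706 and 7354 in empty-vector Tfh, 6565 and 7017 in Bach2 non-Tfh and 5554 and 7242 in empty-vector non-Tfh cells, with overlapping cell types (log2 0.13, adjusted p = 0.452, and 0.14, adjusted p = 0.451). Trbc1 differed by 0.35 (adjusted p = 0.714) and 0.45 (adjusted p = 0.636), and since these genes are near copies, their counts are uncertain.

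Upstream sequence was searched for factor motifs because the CD3 chains and Lck were higher together in Tfh cells and because Bach2 binds the AP-1 core TGANTCA. RefSeq starts (GRCm38.p6) were matched for 35 of the 43 genes, and the 250 bases before each start were read on both strands. The letters TGANTCA were in 0 of the 35 genes, Rasgrp1, Dgka and Gata3 among them, against 7.82% of 27025 genes with a listed start. Sequence outside these 250 bases was not read, so whether these genes have the letters elsewhere is not known. The ETS letters AGGAAGT were upstream of 11 of 35 genes (31.4%), against 8.80% of all genes. Among them were Txk, Grb2, Vav1 and Rel, not past the threshold in either cell type comparison, and Ptpn6, lower in Tfh cells. The 27025 genes were not limited to those tested here, and a link between match and level was not tested. Some windows overlap annotated exons. Among those with ETS letters, the windows of Ptprc, Dgkz, Ptpn6, Rel and Cd3e and 1 window of Lck overlap exons of the same gene. That of Cd247 overlaps an exon of Gm16565. Whether a match itself lies in transcribed sequence was not checked. The RUNX letters TGTGGT were upstream of 7 genes (20.0%, against 15.9%), the GATA letters AGATAA of 5 (14.3%, against 11.4%) and the NF-kB letters GGGANTTCC of 1, Rel (2.86%, against 1.63%). Within a window no match overlapped another. Windows of Ptprc overlap, and an ETS match that lies in both is counted in each of them below. Several genes have more than 1 window, and of single windows 29.2% of 48 held the ETS letters, against 7.69% of 32851. For 3 CD3 chains, Lck and Dgka, 1 window each is shown with every match in capitals. Of those not shown, the window of Cd3e had an ETS match 18 bases before the start. Another window of Lck had an ETS match 114 bases before its start, and the other windows of Dgka had no match.

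The windows are given 5′ to 3′ on the strand of the gene, ending 1 base before the start: Cd3g at chr9:44980432-44980681 (minus strand, capitals a GATA match), Cd3d at chr9:44981536-44981785 (plus, ETS), Cd247 at chr1:165788431-165788680 (plus, ETS), Lck at chr4:129573642-129573891 (minus, RUNX and then ETS) and Dgka at chr10:128745085-128745334 (minus, no match).
Cd3g: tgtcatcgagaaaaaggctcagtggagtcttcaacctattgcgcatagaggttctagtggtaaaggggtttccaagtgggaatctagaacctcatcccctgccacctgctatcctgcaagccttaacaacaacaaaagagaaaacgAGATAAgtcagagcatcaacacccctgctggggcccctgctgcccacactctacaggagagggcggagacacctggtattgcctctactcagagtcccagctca
Cd3d: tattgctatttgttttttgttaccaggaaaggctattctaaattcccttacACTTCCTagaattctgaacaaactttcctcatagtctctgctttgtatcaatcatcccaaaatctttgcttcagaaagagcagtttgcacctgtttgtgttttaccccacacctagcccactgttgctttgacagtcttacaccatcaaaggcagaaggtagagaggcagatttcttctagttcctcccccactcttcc
Cd247: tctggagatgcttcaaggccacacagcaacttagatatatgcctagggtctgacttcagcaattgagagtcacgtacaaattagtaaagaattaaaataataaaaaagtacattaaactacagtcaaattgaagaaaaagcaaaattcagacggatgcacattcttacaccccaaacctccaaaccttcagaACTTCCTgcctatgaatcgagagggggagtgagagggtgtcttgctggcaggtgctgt
Lck: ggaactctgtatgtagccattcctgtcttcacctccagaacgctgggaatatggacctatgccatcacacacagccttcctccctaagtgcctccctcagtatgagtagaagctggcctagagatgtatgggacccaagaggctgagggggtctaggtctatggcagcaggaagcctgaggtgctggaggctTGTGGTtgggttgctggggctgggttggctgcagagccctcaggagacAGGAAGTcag
Dgka: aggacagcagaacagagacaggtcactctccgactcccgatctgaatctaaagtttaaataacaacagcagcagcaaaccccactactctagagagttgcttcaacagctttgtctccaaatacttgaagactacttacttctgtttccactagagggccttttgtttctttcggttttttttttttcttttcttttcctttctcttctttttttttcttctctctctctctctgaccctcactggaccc

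The matched letters lay 199 bases before the start in Cd3d, 58 in Cd247, and 10 in Lck for ETS, 58 in Lck for RUNX, and 104 in Cd3g for GATA, counted to the first base of the match. A match describes these letters and no binding was measured.

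Bach2 overexpression left most of the 43 genes close to the empty-vector level 18 hours after tamoxifen. In Tfh cells 2 genes rose, Rasgrp1 and Gata3, and 0 fell, against 0.549% and 1.16% (1.71% in all) of the genes tested. In non-Tfh cells 0 rose and 0 fell, against 0.253% and 0.619% (0.871% in all). At an unadjusted p below 0.05 there were 5 (Lat, Sla, Sla2, Rasgrp1 and Dgka), and DESeq2 called 0. That is 5 of 43, beside 10.4% of all genes at the same unadjusted level; in Tfh cells it was 7 of 43, beside 15.9%, and DESeq2 called 3, with Dgka added. Averaged over both cell types, 2 genes rose, Rasgrp1 and Dgka, and 0 fell, against 2.37% and 2.90% (5.27% in all). The median log2 change was 0.05 in Tfh and 0.02 in non-Tfh cells, against 0.00 over all genes in each. The 95% interval of the change lay within a 1.5-fold change either way for 39 of 43 genes in Tfh and 43 of 43 in non-Tfh cells. The share over all genes was not counted, and the 43 genes are abundant. For the CD3 chains the changes ran from -0.01 to 0.10 in Tfh and from -0.01 to 0.09 in non-Tfh cells, and for Fyn, Lck and Zap70 from -0.09 to -0.06 in Tfh and from -0.13 to -0.03 in non-Tfh cells. Over all 43 genes they ran from -0.29 (Bcl10) to 0.49 (Rasgrp1) in Tfh and from -0.29 (Sla2) to 0.31 (Dgka) in non-Tfh cells. Tfh markers moved with the vector: all 7 had estimates below 0 in both cell types, with a median of -0.25 in Tfh and -0.56 in non-Tfh cells. Of 4 non-Tfh helper markers (Selplg, Il2ra, Prdm1 and Il7r), 2 had estimates below 0 in Tfh and 3 in non-Tfh cells. Their medians were 0.04 and -0.32. Of these 4, 0 fell in Tfh cells, 1 fell in non-Tfh cells and 1 in the mean over both cell types. In the mean of both, Bcl6 (-0.48 (SE 0.0986, adjusted p = 0.0136)), Il21 (-1.02 (SE 0.168, adjusted p = 0.0200)) and Icos (-0.36 (SE 0.073, adjusted p = 0.0143)) fell, and the part of this in the vector results was not tested.

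Rasgrp1, the exchange factor that couples diacylglycerol to Ras, had the largest mean change with Bach2 of the 43 genes. Rasgrp1 had 323 and 355 CPM in Bach2 Tfh, 248 and 234 in empty-vector Tfh, 336 and 347 in Bach2 non-Tfh and 287 and 269.8 in empty-vector non-Tfh cells. Bach2 libraries lay above empty-vector libraries in both cell types. Of all genes tested, 21.7% did so in Tfh and 20.9% in non-Tfh cells, and the share in both was not counted. The log2 change was 0.49 (SE 0.0825, adjusted p = 0.0109) in Tfh libraries, 0.29 (SE 0.0821, adjusted p = 0.154) in the non-Tfh ones and 0.39 (SE 0.0582, adjusted p = 0.00276) for the mean of both. The Tfh call was lost without replicate 2 of the Bach2 Tfh (adjusted p = 0.0951) or of the empty-vector Tfh cells (adjusted p = 0.107), while the mean effect held in all 12 alternatives. Rasgrp1 lies on chromosome 2 (117279993 to 117343001, minus strand).

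Dgka, which consumes diacylglycerol, also rose in the mean of both cell types. Dgka had 867 and 1027 CPM in Bach2 Tfh, 744 and 743 in empty-vector Tfh, 796 and 787 in Bach2 non-Tfh and 659 and 615 in empty-vector non-Tfh cells. In both cell types the Bach2 libraries lay above the empty-vector ones, beside 21.7% of all genes in Tfh and 20.9% in non-Tfh cells. The change was 0.35 (SE 0.0875, adjusted p = 0.0623) in Tfh libraries and 0.31 (SE 0.0876, adjusted p = 0.154) in the non-Tfh ones, neither past the threshold, and 0.33 (SE 0.0619, adjusted p = 0.00947) for their mean. The mean effect was lost without replicate 2 of the empty-vector non-Tfh cells (adjusted p = 0.0527), and the Tfh change passed without replicate 1 of the Bach2 Tfh cells (adjusted p = 0.0232), by DESeq2 (adjusted p = 0.0145) and without the filter on low counts (adjusted p = 0.00219). Dgka lies on chromosome 10 (128720134 to 128744855, minus strand) and shares 105 exonic bases with Pmel on the other strand. Its relative Dgkz changed by 0.10 (adjusted p = 0.602) and 0.15 (adjusted p = 0.584), and Plcg1 by 0.26 (adjusted p = 0.261) and 0.12 (adjusted p = 0.796), Tfh cells first.

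Gata3 in Tfh cells, with its library values given above, changed by 0.45 (SE 0.104, adjusted p = 0.0465). In non-Tfh libraries its change was 0.03 (SE 0.0985, adjusted p = 0.957). The Tfh call was lost without replicate 1 (adjusted p = 0.163) or 2 (adjusted p = 0.0676) of the Bach2 Tfh, replicate 1 (adjusted p = 0.0589) or 2 (adjusted p = 0.337) of the empty-vector Tfh, or replicate 1 (adjusted p = 0.0670) or 2 (adjusted p = 0.0692) of the empty-vector non-Tfh cells. Without replicate 2 of the Bach2 Tfh cells or of the empty-vector Tfh cells, no gene of the 43 passed in Tfh cells, and over all genes 35 and 21 passed in place of 196. Gata3 lies on chromosome 2 (9857078 to 9890034, minus strand). The difference between its changes in the 2 cell types was 0.41 (SE 0.143, adjusted p = 0.892), the only one of 43 with an unadjusted p below 0.05.

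**Figure D4:**
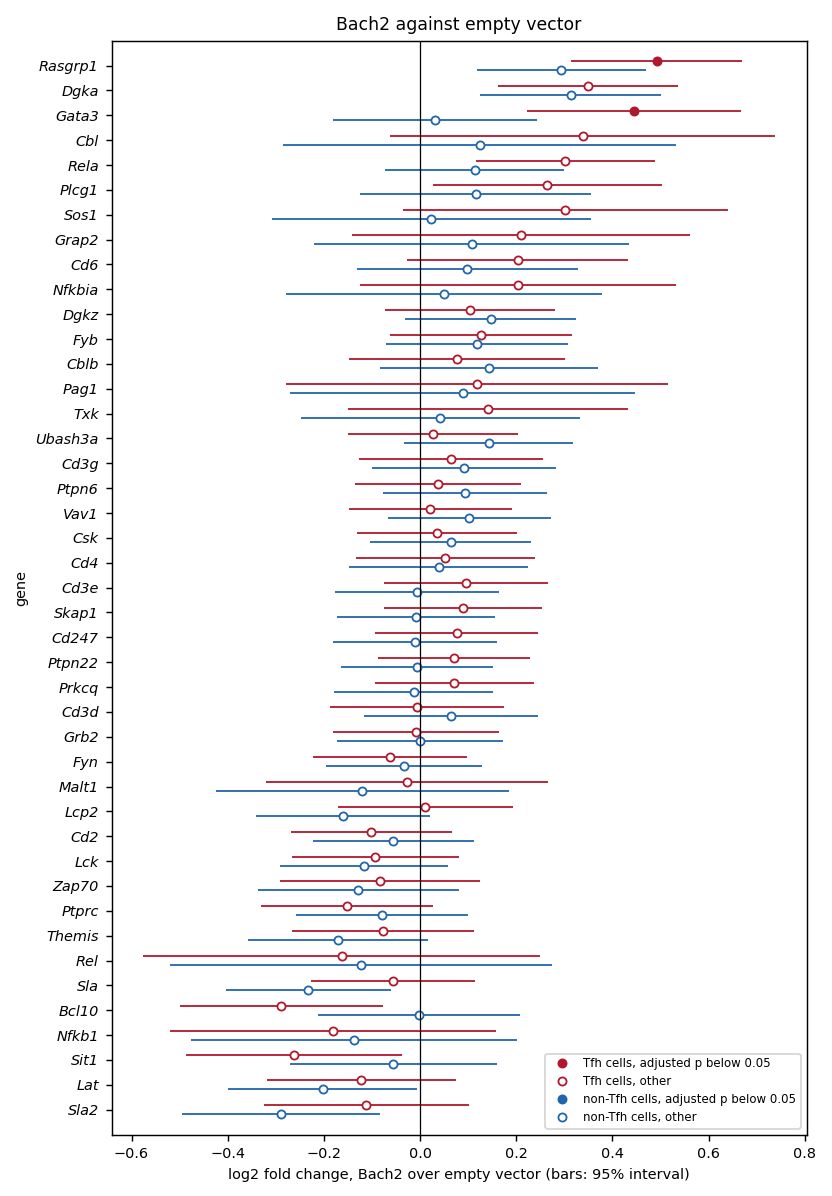
Log2 fold change of Bach2 over empty vector (horizontal axis) for each of the 43 genes (vertical axis, ordered by the mean of both cell types), in Tfh cells in red and non-Tfh cells in blue; bars are 95% intervals of each gene and filled points have adjusted p below 0.05. Rasgrp1 and Dgka head the order with both intervals above 0, and for most genes the intervals span 0.

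No gene of the 43 changed differently with the vector in Tfh and non-Tfh cells past the threshold. Over all 11475 genes 0% passed by edgeR, 539 had an unadjusted p below 0.05, and DESeq2 called 4, none of them among the 43. The 95% intervals of this difference lay within a 1.5-fold change for 38 of the 43 genes, and the share over all genes was not counted. In the 81 further pathway genes 1 rose and 0 fell with Bach2 in Tfh cells, against 0.549% and 1.16% of all genes tested. The 1 gene was Rasa1, a Ras GTPase-activating protein gene, with 269 ± 27.6 CPM in Bach2 Tfh and 196 ± 6.28 CPM in empty-vector Tfh cells (SD, n = 2). Its log2 change was 0.45 (SE 0.102, adjusted p = 0.0379). In non-Tfh cells 0 of 81 passed by edgeR, beside 0.871% of all genes, and 1 passed by DESeq2. There 15 of 81 had an unadjusted p below 0.05, a level that 10.4% of all genes reached. In Tfh cells 17 of 81 did, beside 15.9% of all genes. For the mean over both cell types, where 2.37% of all genes rose and 2.90% fell, 8 of the 81 rose (9.88%) and 2 fell (2.47%). Among them, Ubash3b, the Sts-1 phosphatase gene, rose by 0.37 (SE 0.091, adjusted p = 0.0320) and the calcium channel gene Orai2 by 0.31 (SE 0.0636, adjusted p = 0.0152). The inhibitor gene Nfkbib changed by -0.33 (SE 0.0773, adjusted p = 0.0241), lower with Bach2.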

How the data were processed

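RNA of 8 sorted libraries was amplified with Smart-Seq v4 and made into libraries with Nextera XT, per the labels' protocols. Per the submitters' processing notes, TopHat2, Bowtie2 and featureCounts were used with GRCm38/mm10; the sources used here do not give versions, annotation or the handling of multi-mapping reads. The authors deposited raw counts, 1 whole number per Ensembl gene. GENCODE M21 gave symbols, positions and exon lengths by Ensembl ID for 37693 of 39179 IDs; the other 1486 stayed in the fit. Genes were kept with filterByExpr (minimum count 10, minimum total 15, 11475 genes). They were fitted over all 8 libraries, 1 coefficient per group, with TMM factors (0.985 to 1.01). The test was edgeR 4.0.16's robust quasi-likelihood test in R 4.3.3 (4 residual degrees of freedom), with a threshold of 0.05 after Benjamini-Hochberg adjustment. In simulated counts with genes changed in Bach2 Tfh cells, the Bach2 comparison in Tfh cells recovered 0.51% of genes changed 1.25-fold. It recovered 45.4% of those changed 1.5-fold and 69.2% of those changed 2-fold, with 2, 15 and 9 false calls in that order of folds. The 95% intervals are per gene and not adjusted. An exact test of 2 against 2 libraries cannot go below p = 0.333, so genes were tested only in this model. The model's spread is shared across groups and genes. Alternatives were DESeq2 1.42.0, its size factors in edgeR, no filter, a replicate block, a fit of only the groups compared, and leaving out each library. Genes given with values in every library were the CD3 chains, those past the threshold for a vector effect, and the 14 largest empty-vector cell type differences past it (18 genes); of 81 further pathway genes, the 5 largest changes past the threshold in each comparison are named, apart from some that are not reported here. Values of Cd4 in every library, and the receptor constant genes, were added after they were seen. The members and lists were chosen with earlier results of these data known. The depth per library gives a floor of 3 counts as 0.303 to 0.382 CPM, for counting error only. Chi-square over its degrees of freedom was 5.77 to 8.97 between replicates, more than counting error alone gives, so none was a copy of the other's counts. Whether replicates came from separate RNA cannot be told from this.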

Additional observations from a re-analysis of the deposited data

How the results depend on the processing

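Of values for single genes, 2014 of those without a library and 1186 under other settings kept their side of the threshold; 43 and 4 lost it, and 7 and 14 gained it. Most of these values were not past the threshold in the main fit and had no call to lose. The number kept is thus no measure of how stable the calls were. Of all 3268 values, 147 estimates changed sign, 0 of them past the threshold in either fit. Without a filter on low counts, 4 of the 43 genes passed for Bach2 in Tfh, 1 in non-Tfh cells and 5 for the mean; fitting only the groups compared left 1 in Tfh cells; the cause was not tested. Leaving out each library gave 0 to 2 for Bach2 in Tfh, 0 in non-Tfh, 1 to 2 for the mean, 0 for the difference between cell types, 19 to 24 for Tfh against non-Tfh with Bach2 and 14 to 23 with the empty vector. A replicate block gave 4 for the mean vector effect (Rela and Gata3 added), 3 for Bach2 in Tfh cells (Dgka added) and no other change. Same-numbered libraries deviated together with correlations of 0.307 between the Bach2 groups and 0.248 between the empty-vector groups, and -0.0427 to 0.152 otherwise. The highest values thus lay between Tfh and non-Tfh cells of the same vector. The labels do not say whether same-numbered libraries pair. The block was common to all 4 groups, and a pairing within each vector was not fitted. Over all genes, Bach2 in Tfh cells passed 196, against 326 by DESeq2, 736 without the filter and 473 with the block; Bach2 in non-Tfh cells 100, against 161, 332 and 207; the mean 605, against 1255 without the filter and 975 with the block; and the difference between cell types 0, against 4, 37 and 3. With 2 libraries a group, the median SE of a vector effect was 0.0875 in Tfh cells on the log2 scale, so a change that misses the threshold is not shown to be absent.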

Other observations

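Of the B cell and natural killer markers, Cd22, Ighm and Klrb1c were higher in the sorted Tfh cells than in non-Tfh cells, and the others tested of these cells did not pass the threshold. Cd22, a B cell lectin receptor, had 186 and 158 CPM in Bach2 Tfh, 230.3 and 192 in empty-vector Tfh, 94.0 and 77.8 in Bach2 non-Tfh and 116 and 124 in empty-vector non-Tfh cells, and was higher in Tfh cells 2.00-fold (adjusted p = 4.81e-05) with the Bach2 vector and 1.76-fold (adjusted p = 0.000230) with the empty vector. Ighm, the IgM heavy chain gene, was higher on the log2 scale by 1.03 (SE 0.157, adjusted p = 0.00144) and 1.05 (SE 0.157, adjusted p = 0.00137), Bach2 vector first. The other B cell markers tested had estimates below 0 and did not pass the threshold: Ms4a1 -2.70 and -1.12, Cd79a -1.26 and -0.85, and Cd79b -1.39 and -1.16, from at most 4.69 CPM. Klrb1c, which encodes the NK1.1 antigen, had 93.9 and 85.3 CPM in Bach2 Tfh, 62.9 and 54.4 in empty-vector Tfh, 17.5 and 16.6 in Bach2 non-Tfh and 16.9 and 9.01 in empty-vector non-Tfh cells, and was higher in Tfh cells by 2.39 (SE 0.21, adjusted p = 1.12e-05) with the Bach2 vector and 2.18 (SE 0.218, adjusted p = 3.06e-05) with the empty vector. The source of these transcripts was not tested. The p-values are from edgeR's quasi-likelihood test, adjusted over all tested genes.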
